A study of Mus musculus with 12 samples.

Results

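Gene expression in the skulls of neonatal Crouzon mutant mice was compared between the BALB/c and the C57BL/6 inbred strains. The comparison used the 6 mutant samples among the 12 samples of the series, chosen by their labels: BALB/c mutants 16, 17 and 18 against C57BL/6 mutants 4, 5 and 6. The C57BL/6 mutants and the BALB/c mutants all carried the genotype FGFR2C342Y/+, a single copy of Fgfr2 with the Crouzon substitution, and were taken at postnatal day 3. The tissue was the frontal bone with the nasal bone, the coronal suture and the frontonasal suture, digested with collagenase type II and trypsin before RNA extraction. The wild type samples of each strain (1 to 3 for C57BL/6, 13 to 15 for BALB/c) were of the same age and tissue and are used beside the mutants. The identifiers in the descriptions put every C57BL/6 library on 1 flow cell and every BALB/c library on a different one. Strain and flow cell therefore cannot be told apart in any strain comparison below. Where the mutant comparison is set against that of wild type, a flow cell effect equal in both genotypes cancels. A flow cell effect that differs between the genotypes does not. The labels give neither the sex nor the number of animals in a sample, and nothing says that samples of a group came from separate litters, so the p-values measure the spread between these samples only. Osteoblast markers were present in all 6 mutants, with Col1a1, the main bone collagen chain, at 111864, 128247 and 136653 CPM (gene counts scaled to a common library total of 1e6) in C57BL/6 and 96809, 104622 and 103730.0 CPM in BALB/c. Per-sample values are given throughout in the order 4, 5, 6 for C57BL/6 and 16, 17, 18 for BALB/c.

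FGFR2 is a receptor tyrosine kinase for fibroblast growth factors. In the skull it acts on the osteogenic cells at the edges of the sutures, the fibrous joints through which the skull bones grow, and its signal runs through the ERK kinases, whose target genes include the feedback inhibitors of the Sprouty, Spred and DUSP families and the ETS factors Etv1, Etv4 and Etv5. The Crouzon substitution removes a cysteine of the extracellular domain and leaves the receptor active without ligand. Crouzon syndrome includes craniosynostosis, the early fusion of sutures. The title of the series asks which genes modify or mediate its severity, and the comparison of mutants on different strains bears on that question. Newborn skull bone also holds marrow, in which blood cells form, and osteoclasts, the cells that resorb bone.

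Of 16190 genes tested, 5968 (36.9%) differed between BALB/c and C57BL/6 mutants at an adjusted p under 0.05 (edgeR quasi-likelihood test, n = 3 a group), and this share is the background for every list below. Of these, 2914 were higher in BALB/c (18% of all genes tested) and 3054 lower (18.9%). Most differences were small, with a median size of 0.52 on the log2 scale among the genes called. At least a doubling or halving of the level was called for 813 genes higher (5.02%) and 660 lower (4.08%). For 8126 genes (50.2%) no BALB/c mutant lay within the CPM range of the C57BL/6 mutants, and 5766 of these were called. A further test of stability left out each mutant sample in turn, and 3885 genes (24%) were called in all 7 fits, 1923 higher (11.9%) and 1962 lower (12.1%). The balance of directions depends on the scaling: with total counts in place of TMM factors, 4039 genes were called higher and 1915 lower, and the median of all genes moved by 0.12 on the log2 scale.

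**Figure D1:**
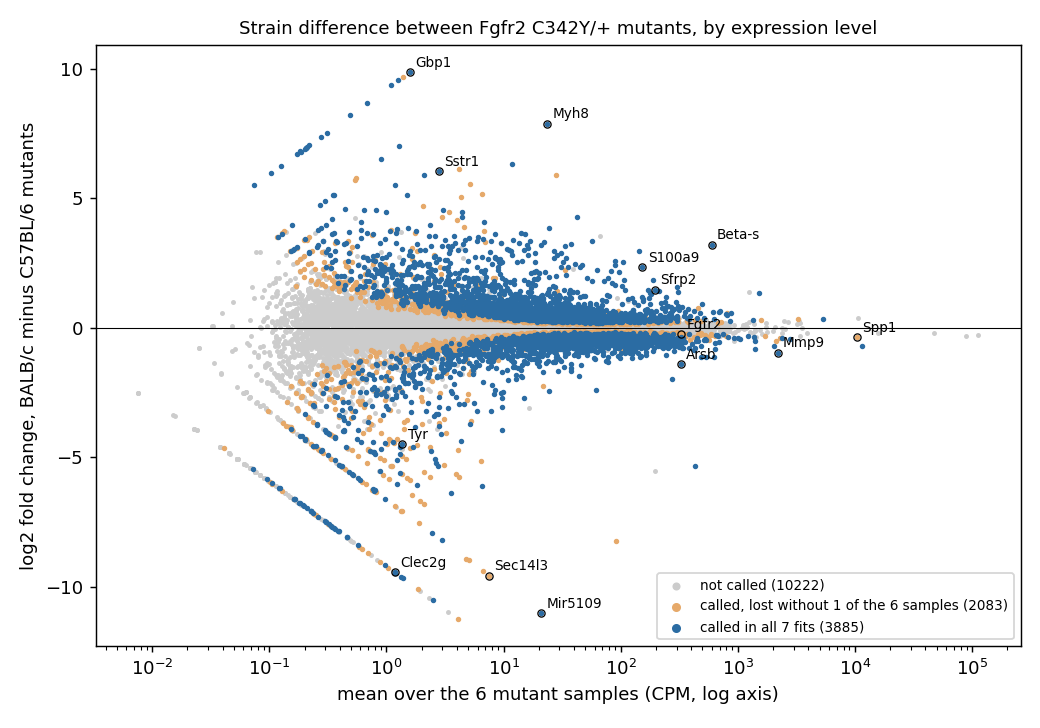
Mean level over the 6 mutants (x axis, CPM on a log axis) against the strain difference in mutants (y axis, log2, BALB/c minus C57BL/6), 1 point per gene tested. Points are coloured by whether the gene was not called (10222 genes), was called but lost the call in a fit without 1 mutant sample (2083 genes), or was called in all 7 fits (3885 genes), and the last are found on both sides of 0 over the whole range of levels.

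The mutant libraries held between 32349496 and 46521546 gene counts each. Gene counts made up 80.0% to 80.7% of the authors' library total in the C57BL/6 mutants and 86.4% to 88.0% in the BALB/c mutants. The first principal component of the mutants (53.5% of the variance) separated the strains, and the second (26.3%) set C57BL/6 mutant 4 apart from C57BL/6 mutants 5 and 6. The log2 CPM of C57BL/6 mutant 4 correlated at 0.958 with each of the others across genes, which are not independent replicates, against 0.987 between 5 and 6 and 0.981 to 0.991 among the BALB/c mutants. C57BL/6 mutant 4 also carried nasal airway and olfactory RNA, as did all 3 C57BL/6 wild type samples, and BALB/c mutant 16 carried skeletal muscle and nerve RNA, described below. Y-linked genes were expressed in 1 of the 3 samples of each mutant group.

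Red blood cell genes were several-fold higher in BALB/c mutants than in C57BL/6 mutants. Of 18 erythroid genes tested, 17 were higher and 0 lower, with a median log2 difference of 2.96 against -0.00 over all genes, and 17 of the 18 had CPM ranges that did not overlap (50.2% of all genes). Without C57BL/6 mutant 4 and BALB/c mutant 16 together, the count was 16 higher and 0 lower. In summed level the list stood at 299.8 to 366 CPM in C57BL/6 mutants and 1697 to 2019 CPM in BALB/c mutants. To show what these genes share besides their level, 120 bases upstream of the RefSeq transcription start are printed for 5 of them (GRCm38.p6, 5′ to 3′ on the strand of the gene). These are genes whose window holds the letters AGATAA or TGATAA on either strand, the core recognised by GATA factors, and the capitals mark those letters or their reverse complement. The windows are Alas2 chrX:150547297-150547416 (plus strand), Rhag chr17:40811029-40811148 (plus strand), Rhd chr4:134864416-134864535 (plus strand), Hemgn chr4:46404184-46404303 (minus strand) and Epor chr9:21963577-21963696 (minus strand).
Alas2: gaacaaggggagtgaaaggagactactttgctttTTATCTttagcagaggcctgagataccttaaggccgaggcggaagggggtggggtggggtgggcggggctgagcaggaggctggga
Rhag: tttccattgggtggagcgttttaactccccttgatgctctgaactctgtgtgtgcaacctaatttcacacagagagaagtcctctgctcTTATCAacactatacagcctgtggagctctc
Rhd: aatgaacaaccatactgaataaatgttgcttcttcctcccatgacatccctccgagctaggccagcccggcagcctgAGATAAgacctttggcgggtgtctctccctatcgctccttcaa
Hemgn: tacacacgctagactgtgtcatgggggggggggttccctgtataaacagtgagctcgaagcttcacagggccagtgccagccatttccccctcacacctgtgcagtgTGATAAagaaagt
Epor: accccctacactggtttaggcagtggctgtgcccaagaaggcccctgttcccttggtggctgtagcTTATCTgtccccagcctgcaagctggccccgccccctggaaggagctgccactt
In 250 bases upstream, these letters were found in 11 of the 14 listed erythroid genes that have a single RefSeq window (78.6%), against 3972 of 22862 promoters of all genes (17.4%). The capitals lie 80 bases before the start in Alas2, 25 in Rhag, 37 in Rhd, 7 in Hemgn and 48 in Epor. The letters CCNCNCCC, a pattern of KLF factors that can overlap other GC-rich motifs, were in 7 of 14 (50%), near the 44.7% of the same single-window promoters. The GATA letters were in 2 of 6 heme synthesis genes, 3 of 13 neutrophil genes, 1 of 16 mitosis genes and 0 of 5 osteoclast genes with a single window. Such a match describes the letters only and is not evidence of binding.

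Regulators of the red cell lineage moved with the structural genes. Klf1, a transcription factor of red cell precursors, was at 1.08, 1.46 and 1.35 CPM in the C57BL/6 mutants and 17.1, 16.2 and 13.8 CPM in the BALB/c mutants, 12.1-fold higher in BALB/c (log2 3.60, SE 0.21, edgeR adjusted p 3.61e-07). Gata1, the GATA factor of the red cell and platelet lineages, was at 1.08, 1.02 and 1.08 CPM in the C57BL/6 mutants and 10.2, 11.3 and 10.9 CPM in the BALB/c mutants, 10.2-fold higher in BALB/c (log2 3.35, SE 0.26, edgeR adjusted p 3.85e-06). Their groups were far apart, with the lowest BALB/c value of either gene several times the highest C57BL/6 value. Epor, the erythropoietin receptor, was at 2.53, 3.01 and 4.15 CPM in the C57BL/6 mutants and 15, 14.8 and 14.8 CPM in the BALB/c mutants, 4.61-fold higher in BALB/c (log2 2.21, SE 0.17, edgeR adjusted p 3.18e-06). Hemgn, a nuclear protein of blood progenitors, was at 2.89, 4.75 and 4.69 CPM in the C57BL/6 mutants and 39.9, 34.8 and 38.9 CPM in the BALB/c mutants, 9.23-fold higher in BALB/c (log2 3.21, SE 0.23, edgeR adjusted p 1.83e-06). Among membrane proteins, Slc4a1, the anion exchanger band 3, was at 23.6, 40.5 and 34.3 CPM in the C57BL/6 mutants and 287, 226 and 247 CPM in the BALB/c mutants, 7.72-fold higher in BALB/c (log2 2.95, SE 0.24, edgeR adjusted p 5.41e-06). Again no sample of one strain reached the range of the other. Rhag, the Rh-associated glycoprotein, was at 0.813, 2.86 and 2.69 CPM in the C57BL/6 mutants and 24.3, 20.5 and 20.4 CPM in the BALB/c mutants, 10.3-fold higher in BALB/c (log2 3.36, SE 0.37, edgeR adjusted p 4.28e-05). Rhd, the Rh blood group protein, was at 2.76, 3.54 and 3.88 CPM in the C57BL/6 mutants and 31.8, 27.8 and 26.6 CPM in the BALB/c mutants, 8.48-fold higher in BALB/c (log2 3.08, SE 0.14, edgeR adjusted p 5.68e-08). Ermap, an erythroblast membrane protein, was at 5.24, 7.23 and 5.87 CPM in the C57BL/6 mutants and 49.6, 44.9 and 49 CPM in the BALB/c mutants, 7.82-fold higher in BALB/c (log2 2.97, SE 0.13, edgeR adjusted p 3.58e-08). Within C57BL/6, mutant 4 was the lowest of its group for each of these genes except Gata1.

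The beta-globin gene listed as Beta-s stood at 115, 126 and 112 CPM in C57BL/6 mutants and 1175, 961 and 1099 CPM in BALB/c mutants, 9.16-fold higher (log2 3.19, SE 0.18, edgeR adjusted p 2.78e-07). Of its 32-base words, 54.4% occur in other genes, so its reads can be shared with other globins. Whether they are placed alike in both strains was not tested. The strain difference of Beta-s in mutants exceeded that in wild type by 1.72 on the log2 scale, so part of it was also present in wild type. Hba-a1, an alpha-globin gene with 75.2% of shared words, was low throughout, at 0.361, 0.340 and 0.216 CPM against 1.62, 1.29 and 1.13 CPM (log2 2.12, SE 0.51, edgeR adjusted p 0.00673). The exception in the list was Tfrc, the transferrin receptor, which many dividing cells use, at 106, 124 and 99 CPM and 108, 115 and 127 CPM (log2 0.09, SE 0.10, edgeR adjusted p 0.554). Genes of heme synthesis followed the red cell genes, with 9 of 11 tested higher, 0 lower and a median log2 of 0.76. Alas2, the red cell form of the first enzyme of heme synthesis, was at 18.6, 25.6 and 22.4 CPM in the C57BL/6 mutants and 114, 93.1 and 101 CPM in the BALB/c mutants, 4.62-fold higher in BALB/c (log2 2.21, SE 0.19, edgeR adjusted p 8.50e-06). The summed level of the heme genes was 292 to 307 CPM in C57BL/6 mutants and 562 to 607 CPM in BALB/c mutants.

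Other lineages of the marrow were also higher in BALB/c mutants. Of 14 neutrophil genes tested, 13 were higher and 0 lower, with a median log2 of 2.26, and their summed level was 135 to 288 CPM in C57BL/6 mutants and 867 to 947 CPM in BALB/c mutants. S100a9, a calcium-binding protein that makes up much of the neutrophil cytosol, was at 44.8, 71.2 and 35.7 CPM in the C57BL/6 mutants and 270.1, 253 and 245 CPM in the BALB/c mutants, 5.06-fold higher in BALB/c (log2 2.34, SE 0.23, edgeR adjusted p 2.11e-05). Mpo, the myeloperoxidase of neutrophil precursors, was at 3.61, 9.6 and 8.89 CPM in the C57BL/6 mutants and 71.3, 67.8 and 65.3 CPM in the BALB/c mutants, 9.28-fold higher in BALB/c (log2 3.21, SE 0.39, edgeR adjusted p 7.92e-05). Elane, neutrophil elastase, was at 0.542, 1.70 and 1.24 CPM in the C57BL/6 mutants and 13.7, 11.3 and 11.9 CPM in the BALB/c mutants, 10.6-fold higher in BALB/c (log2 3.41, SE 0.51, edgeR adjusted p 0.000323). C57BL/6 mutant 5 had the highest C57BL/6 value of each of these genes and still lay well below all BALB/c mutants. Camp, the cathelicidin antimicrobial peptide, was at 7.09, 10.2 and 5.06 CPM in the C57BL/6 mutants and 63.4, 48 and 52.9 CPM in the BALB/c mutants, 7.33-fold higher in BALB/c (log2 2.87, SE 0.29, edgeR adjusted p 2.37e-05). S100a8, the partner of S100a9, was at 31, 50.9 and 24.9 CPM and 169, 162 and 145 CPM (log2 2.16, SE 0.24, edgeR adjusted p 3.93e-05).

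Platelet and B cell precursor genes showed the same direction. Of 8 megakaryocyte and platelet genes tested, 7 were higher and 0 lower (median log2 2.47). Ppbp, a chemokine stored in platelets, was at 0.813, 0.825 and 0.862 CPM in the C57BL/6 mutants and 12.9, 6.50 and 8.27 CPM in the BALB/c mutants, 11-fold higher in BALB/c (log2 3.46, SE 0.39, edgeR adjusted p 4.48e-05). Pf4, platelet factor 4, was at 4.79, 3.25 and 4.15 CPM in the C57BL/6 mutants and 18, 13.1 and 14.5 CPM in the BALB/c mutants, 3.73-fold higher in BALB/c (log2 1.90, SE 0.18, edgeR adjusted p 1.50e-05). Itga2b, the platelet integrin alpha chain, was at 7.41, 4.17 and 4.90 CPM in the C57BL/6 mutants and 17.3, 11.9 and 15 CPM in the BALB/c mutants, 2.67-fold higher in BALB/c (log2 1.42, SE 0.23, edgeR adjusted p 0.000591). The member not called was Vwf, von Willebrand factor, which endothelial cells also make, at 30.1, 45.4 and 59.6 CPM and 79, 43.4 and 38.9 CPM with overlapping groups. Among 12 genes of B cell precursors, 11 were higher and 1 lower, with a median log2 of 2.72 and of 2.61 when a gene absent from C57BL/6 is set at its lower bound. Vpreb1, a component of the surrogate light chain of B cell precursors, was at 0.0904, 0.243 and 0.431 CPM in the C57BL/6 mutants and 3.30, 3.06 and 3.69 CPM in the BALB/c mutants, 13.2-fold higher in BALB/c (log2 3.72, SE 0.48, edgeR adjusted p 0.000113). Rag1, a recombinase of antigen receptor genes, was at 1.22, 1.21 and 1.24 CPM in the C57BL/6 mutants and 5.94, 4.00 and 6.59 CPM in the BALB/c mutants, 4.49-fold higher in BALB/c (log2 2.17, SE 0.25, edgeR adjusted p 6.13e-05). Both of these genes were low in C57BL/6 mutants and higher in each BALB/c mutant. Dntt, which adds bases at the joints of antigen receptor genes, had no count in any C57BL/6 mutant and was at 0.300, 0.430 and 0.591 CPM in BALB/c, at least 5.97-fold higher with a floor of 3 counts per library (edgeR adjusted p 0.00274). All deposited counts are even, and with the counts halved the bound is 2.98-fold, and each other such bound below is likewise 2 times lower. The gene that went the other way was Ebf1, a B lineage factor also made by mesenchymal cells, at 27.6, 21.3 and 24.9 CPM and 17.4, 17 and 15.2 CPM (log2 -0.57, SE 0.13, edgeR adjusted p 0.00446). Of 5 T and NK cell genes tested, 3 were higher and 0 lower.

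Genes of the dividing cell were higher in BALB/c mutants. Of 19 mitosis genes, 17 were higher and 0 lower (median log2 0.73), and of 19 DNA replication genes, 15 were higher and 0 lower (median log2 0.49, with 1 lower without C57BL/6 mutant 4). Mki67, the Ki-67 marker of cycling cells, was at 95.1, 113 and 92.7 CPM in the C57BL/6 mutants and 182, 180.5 and 189 CPM in the BALB/c mutants, 1.83-fold higher in BALB/c (log2 0.87, SE 0.088, edgeR adjusted p 2.09e-05). Plk1, a mitotic kinase, was at 13.9, 13.9 and 13 CPM in the C57BL/6 mutants and 29.9, 29.2 and 29.5 CPM in the BALB/c mutants, 2.17-fold higher in BALB/c (log2 1.12, SE 0.065, edgeR adjusted p 3.20e-07). Tyms, thymidylate synthase, was at 11.7, 14 and 11.5 CPM in the C57BL/6 mutants and 29.2, 29.9 and 28.4 CPM in the BALB/c mutants, 2.35-fold higher in BALB/c (log2 1.23, SE 0.090, edgeR adjusted p 2.17e-06). Cdc6, a licensing factor of replication origins, was at 6.33, 9.12 and 6.14 CPM in the C57BL/6 mutants and 18.9, 16 and 14.8 CPM in the BALB/c mutants, 2.30-fold higher in BALB/c (log2 1.20, SE 0.17, edgeR adjusted p 0.000197). No BALB/c mutant overlapped the C57BL/6 range for any of the 4. The summed mitosis genes were at 492 to 623 CPM in C57BL/6 mutants and 852 to 860.2 CPM in BALB/c mutants. In the same samples the erythroid and neutrophil lists were higher by more, and their part in the proliferation genes was not tested. Without C57BL/6 mutant 4 and BALB/c mutant 16 the counts were 16 higher and 0 lower for mitosis and 11 higher and 0 lower for replication.

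**Figure D2:**
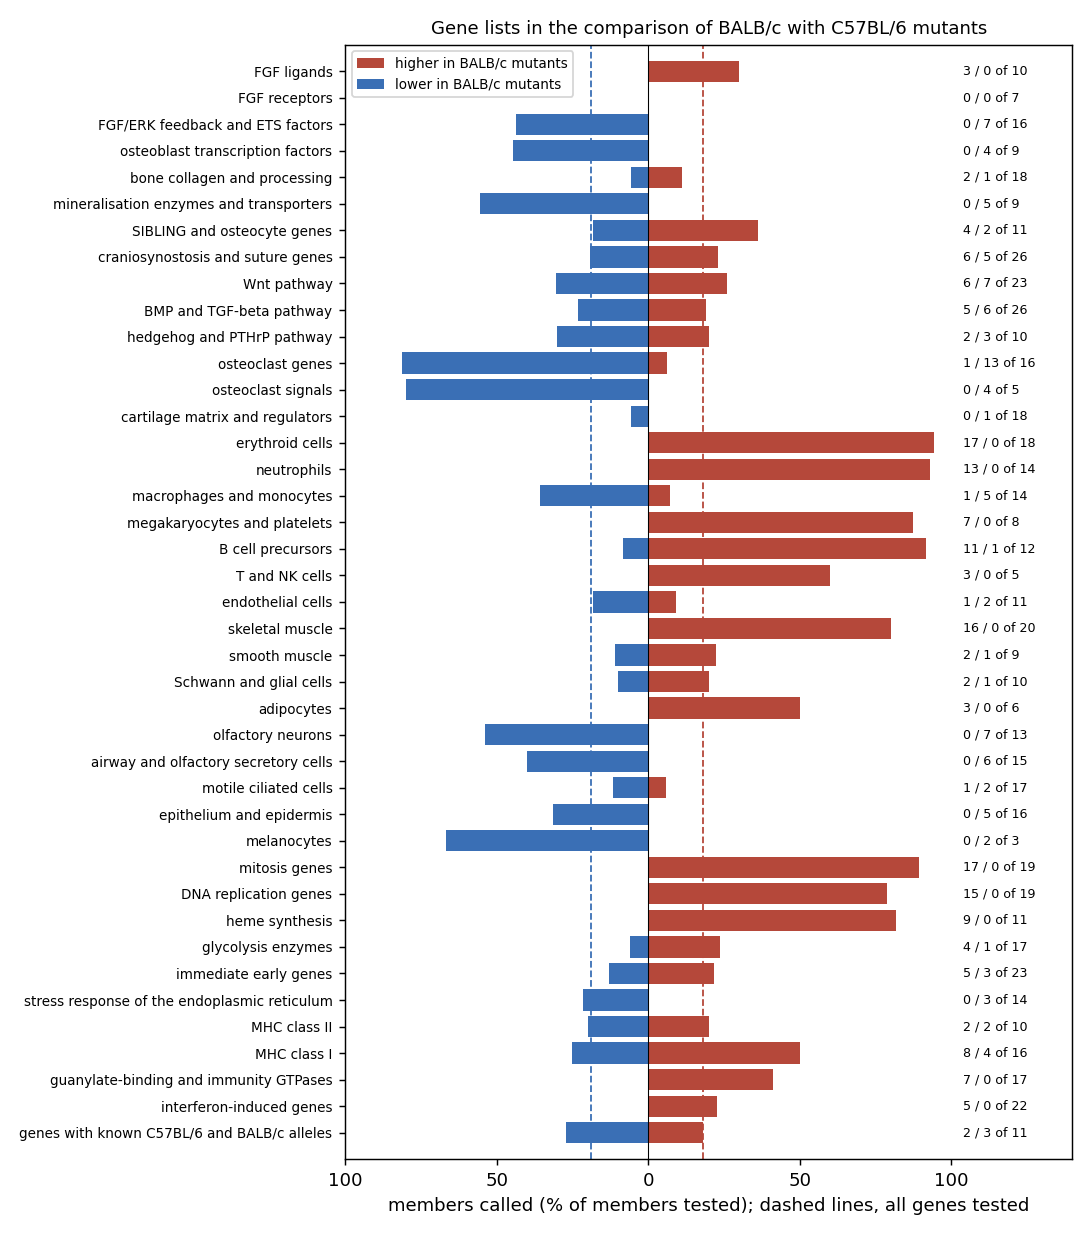
Share of the tested members of each gene list called lower (left of 0) and higher (right of 0) in BALB/c mutants than in C57BL/6 mutants, in percent of tested members, with dashed lines at the shares over all genes (18.9% lower, 18% higher). Erythroid, neutrophil, platelet, B cell, heme, mitosis and replication lists lie almost wholly to the right, osteoclast lists almost wholly to the left, and the macrophage and monocyte list mainly to the left (1 of 14 higher, 5 lower).

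Osteoclast genes were lower in BALB/c mutants. Of 16 tested, 13 were lower and 1 higher (median log2 -0.47), where 18.9% of all genes were lower, and the count was unchanged in each of the 6 fits without 1 mutant sample and without C57BL/6 mutant 4 and BALB/c mutant 16 together. The summed level was 8354 to 9309 CPM in C57BL/6 mutants and 5207 to 5932 CPM in BALB/c mutants. Mmp9, a matrix metalloproteinase of osteoclasts, was at 2836, 2794 and 3090.4 CPM in the C57BL/6 mutants and 1336, 1574 and 1526 CPM in the BALB/c mutants, 1.97-fold lower in BALB/c (log2 -0.98, SE 0.099, edgeR adjusted p 2.26e-05). Acp5, tartrate-resistant acid phosphatase, the classic osteoclast stain, was at 1701, 1735 and 1980.1 CPM in the C57BL/6 mutants and 969.9, 992 and 1095 CPM in the BALB/c mutants, 1.77-fold lower in BALB/c (log2 -0.82, SE 0.10, edgeR adjusted p 7.81e-05). Ctsk, cathepsin K, which degrades bone collagen, was at 2564, 2681 and 2835 CPM in the C57BL/6 mutants and 1912, 2035 and 2198 CPM in the BALB/c mutants, 1.31-fold lower in BALB/c (log2 -0.39, SE 0.10, edgeR adjusted p 0.00915). Each of these groups was narrow, and no BALB/c mutant reached a C57BL/6 mutant. Oscar, a costimulatory receptor of osteoclasts, was at 34.8, 39.4 and 43.6 CPM in the C57BL/6 mutants and 15.5, 16.1 and 16.3 CPM in the BALB/c mutants, 2.46-fold lower in BALB/c (log2 -1.30, SE 0.11, edgeR adjusted p 6.16e-06). Ocstamp, a membrane protein needed for osteoclast fusion, was at 36, 40.1 and 42.4 CPM in the C57BL/6 mutants and 14.5, 15.8 and 17 CPM in the BALB/c mutants, 2.50-fold lower in BALB/c (log2 -1.32, SE 0.12, edgeR adjusted p 1.38e-05). Nfatc1, the master transcription factor of osteoclasts, was at 192, 202 and 209 CPM and 129.6, 145 and 154 CPM (log2 -0.49, SE 0.091, edgeR adjusted p 0.00135), and it was at log2 -0.20 and edgeR adjusted p 0.0813 with offsets for coding length.

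The member that went the other way was Car2, carbonic anhydrase 2, which supplies acid in osteoclasts and is also abundant in red cells. It was at 41.9, 44.5 and 42.8 CPM in C57BL/6 mutants and 136, 137 and 135 CPM in BALB/c mutants, 3.16-fold higher (log2 1.66, SE 0.078, edgeR adjusted p 6.00e-08), and the erythroid list was higher in the same samples. Not called were Calcr, the calcitonin receptor, at 2.80, 3.44 and 4.42 CPM and 2.82, 3.19 and 4.04 CPM, and Ostm1, a partner of the lysosomal chloride transporter, at 37.5, 42.6 and 39.6 CPM and 32.5, 36.5 and 40.3 CPM. The signals that osteoblast-lineage cells send to osteoclasts were lower too, with 4 of 5 tested lower and 0 higher. Csf1, the growth factor of macrophages and osteoclasts, was at 171, 186 and 174 CPM in the C57BL/6 mutants and 122, 130.4 and 118 CPM in the BALB/c mutants, 1.43-fold lower in BALB/c (log2 -0.52, SE 0.13, edgeR adjusted p 0.00787). Tnfsf11, RANKL, the osteoclast differentiation factor, was at 27.5, 27.9 and 31.4 CPM in the C57BL/6 mutants and 18.6, 18.2 and 22.9 CPM in the BALB/c mutants, 1.45-fold lower in BALB/c (log2 -0.54, SE 0.15, edgeR adjusted p 0.0125). Tnfrsf11b, osteoprotegerin, the decoy receptor that blocks RANKL, was at 27.2, 27.2 and 24.6 CPM in the C57BL/6 mutants and 18.2, 18.2 and 17.6 CPM in the BALB/c mutants, 1.46-fold lower in BALB/c (log2 -0.55, SE 0.13, edgeR adjusted p 0.00511). The inducer and its inhibitor thus differed in the same direction. Tnfsf11 lost its call in fits without 1 sample, with edgeR adjusted p of 0.0505 without BALB/c mutant 16 and 0.0543 without BALB/c mutant 17.

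Fewer members were called in the list of macrophages, cells that share a precursor with osteoclasts, and the lists were not tested against each other. Of 14 genes, 5 were lower and 1 higher, and in summed level it was 679 to 756 CPM in C57BL/6 mutants and 579 to 593 CPM in BALB/c mutants. The count of lower genes was 3 without C57BL/6 mutant 6, 3 without BALB/c mutant 17 and 3 with total counts. Csf1r, the receptor of Csf1, was at 316, 347 and 369 CPM in the C57BL/6 mutants and 227, 251 and 251 CPM in the BALB/c mutants, 1.42-fold lower in BALB/c (log2 -0.50, SE 0.10, edgeR adjusted p 0.00245). Cd68, a lysosomal protein of macrophages and osteoclasts, was at 128, 150.0 and 146 CPM in the C57BL/6 mutants and 72.2, 76.1 and 78.8 CPM in the BALB/c mutants, 1.86-fold lower in BALB/c (log2 -0.90, SE 0.10, edgeR adjusted p 4.23e-05). The gene called higher was Lyz2, a lysozyme shared with neutrophils, at 48, 55.3 and 45.3 CPM and 108, 102 and 93.4 CPM (log2 1.03, SE 0.095, edgeR adjusted p 1.19e-05). These are bulk samples, so fewer cells of a type and less RNA per cell cannot be told apart here or in any list.

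Among osteoblast transcription factors, 4 of 9 tested were lower in BALB/c mutants and 0 higher, and the 4 calls were the same in number in every fit without 1 sample. Runx2, the master regulator of the osteoblast lineage, was at 458, 493 and 508 CPM in the C57BL/6 mutants and 235, 298 and 321 CPM in the BALB/c mutants, 1.71-fold lower in BALB/c (log2 -0.77, SE 0.10, edgeR adjusted p 0.000133). Sp7, osterix, which acts after Runx2, was at 361, 399 and 427 CPM in the C57BL/6 mutants and 235, 263 and 262 CPM in the BALB/c mutants, 1.56-fold lower in BALB/c (log2 -0.64, SE 0.12, edgeR adjusted p 0.00133). BALB/c mutant 16 had the lowest value of its group for both. Dlx5, a homeobox gene of osteoblasts, overlapped between the strains at 53.9, 56.7 and 64.1 CPM and 55.5, 60.2 and 55.2 CPM (log2 -0.03, SE 0.15, edgeR adjusted p 0.887).

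Genes that control mineral deposition were lower as well. Of 9 tested, 5 were lower and 0 higher (median log2 -0.52), with a summed level of 2942 to 3214 CPM in C57BL/6 mutants and 1934 to 2180.3 CPM in BALB/c mutants. Alpl, tissue-nonspecific alkaline phosphatase, which frees phosphate for mineral, was at 706, 898 and 832 CPM in the C57BL/6 mutants and 448, 453 and 482 CPM in the BALB/c mutants, 1.76-fold lower in BALB/c (log2 -0.82, SE 0.15, edgeR adjusted p 0.0013). Enpp1 and Ank supply pyrophosphate, an inhibitor of mineral. Enpp1, which makes pyrophosphate outside the cell, was at 188, 228 and 199.6 CPM in the C57BL/6 mutants and 109, 127 and 119 CPM in the BALB/c mutants, 1.73-fold lower in BALB/c (log2 -0.79, SE 0.098, edgeR adjusted p 8.79e-05). Ank, which exports pyrophosphate precursors, was at 703, 732 and 883 CPM in the C57BL/6 mutants and 478, 535 and 533 CPM in the BALB/c mutants, 1.5-fold lower in BALB/c (log2 -0.58, SE 0.11, edgeR adjusted p 0.00138). Genes that promote mineral and genes that restrain it were therefore both lower. Phex, a membrane peptidase of phosphate control, was at 394, 453 and 425 CPM in the C57BL/6 mutants and 219, 262 and 261 CPM in the BALB/c mutants, 1.72-fold lower in BALB/c (log2 -0.78, SE 0.14, edgeR adjusted p 0.00129). Smpd3, a sphingomyelinase needed for bone mineral, was at 521, 552 and 538 CPM in the C57BL/6 mutants and 321, 391 and 413 CPM in the BALB/c mutants, 1.43-fold lower in BALB/c (log2 -0.52, SE 0.12, edgeR adjusted p 0.00581). Phospho1, a phosphatase of matrix vesicles, overlapped at 51.3, 57 and 51.5 CPM and 44.8, 55.1 and 57.2 CPM, and 87% of its words occur in other genes. The erythroid list, in which Hbb-bt and Epb42 have no row, summed to at most 2019 CPM in any mutant. That sum does not measure all red cell RNA, and the part of red cell RNA in these levels was not tested.

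Late osteoblast and osteocyte genes did not share a direction, with 4 of 11 tested higher and 2 lower, and 1 lower in each fit without 1 mutant sample. Dmp1, a matrix protein of osteocytes, was at 1548, 1771 and 1668 CPM in the C57BL/6 mutants and 1068, 1203 and 1207 CPM in the BALB/c mutants, 1.43-fold lower in BALB/c (log2 -0.52, SE 0.13, edgeR adjusted p 0.00846). Bglap2, an osteocalcin gene, secreted by mature osteoblasts, was at 44.1, 54.9 and 43.2 CPM in the C57BL/6 mutants and 110.0, 114 and 111 CPM in the BALB/c mutants, 2.36-fold higher in BALB/c (log2 1.24, SE 0.17, edgeR adjusted p 0.000196). Of its words, 95% occur in other genes, and its neighbour Bglap (62.5%) was at 330.2, 319 and 341 CPM and 528, 506 and 511 CPM (log2 0.64, SE 0.13, edgeR adjusted p 0.00226), so reads may be divided between these copies. Sost, sclerostin, the Wnt inhibitor of osteocytes, was at 37.4, 57.8 and 54.8 CPM in the C57BL/6 mutants and 76.7, 94 and 87.9 CPM in the BALB/c mutants, 1.73-fold higher in BALB/c (log2 0.79, SE 0.20, edgeR adjusted p 0.0091). Mepe, another phosphoprotein of osteocytes, was at 83.8, 76.9 and 76.5 CPM and 101, 99.1 and 106 CPM (log2 0.37, SE 0.10, edgeR adjusted p 0.0163), with edgeR adjusted p of 0.0512 without C57BL/6 mutant 6 and 0.0544 without BALB/c mutant 18. Its call was also lost with offsets for coding length (edgeR adjusted p 0.0633). Spp1, osteopontin, was at 11646, 11468 and 12122 CPM and 8628, 9340.4 and 9084 CPM (log2 -0.38, SE 0.12, edgeR adjusted p 0.0291). Its groups did not overlap, but it lost the call in all 6 fits without 1 sample, with edgeR adjusted p of 0.0639 without C57BL/6 mutant 4, 0.0599 without C57BL/6 mutant 5, 0.0871 without C57BL/6 mutant 6, 0.0931 without BALB/c mutant 16, 0.058 without BALB/c mutant 17 and 0.0701 without BALB/c mutant 18. It also lost the call with total counts (edgeR adjusted p 0.0529). Ibsp, bone sialoprotein, overlapped at 1755, 1917 and 1487 CPM and 1607, 1758 and 1877 CPM (log2 0.02, SE 0.18, edgeR adjusted p 0.932).

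Few genes of the bone collagen list were called, with 2 of 18 higher and 1 lower. Col1a1 was -0.30 on the log2 scale (SE 0.17, edgeR adjusted p 0.193) and Col1a2, its partner chain, -0.34 (SE 0.17, edgeR adjusted p 0.13). Their BALB/c values lay below all C57BL/6 values, with Col1a2 at 90414, 98927 and 108330.0 CPM and 75418, 80689 and 79423 CPM, but the main model did not call them. Of 16 alternative fits, 1 called Col1a1 lower and 1 called Col1a2 lower. The genes called were Ppib (log2 0.30, adjusted p 0.00576) and Crtap (log2 0.43, adjusted p 0.00811), higher, and Serpinh1, the collagen chaperone (log2 -0.40, adjusted p 0.0259), lower, all by edgeR. Ppib was at log2 0.16 and edgeR adjusted p 0.0964 with offsets for coding length. Ppib and Crtap belong to the complex that modifies collagen prolines. None of the list was called without C57BL/6 mutant 4 and BALB/c mutant 16, and Serpinh1 was not called without C57BL/6 mutant 5, C57BL/6 mutant 6, BALB/c mutant 16 or BALB/c mutant 18.

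**Figure D3:**
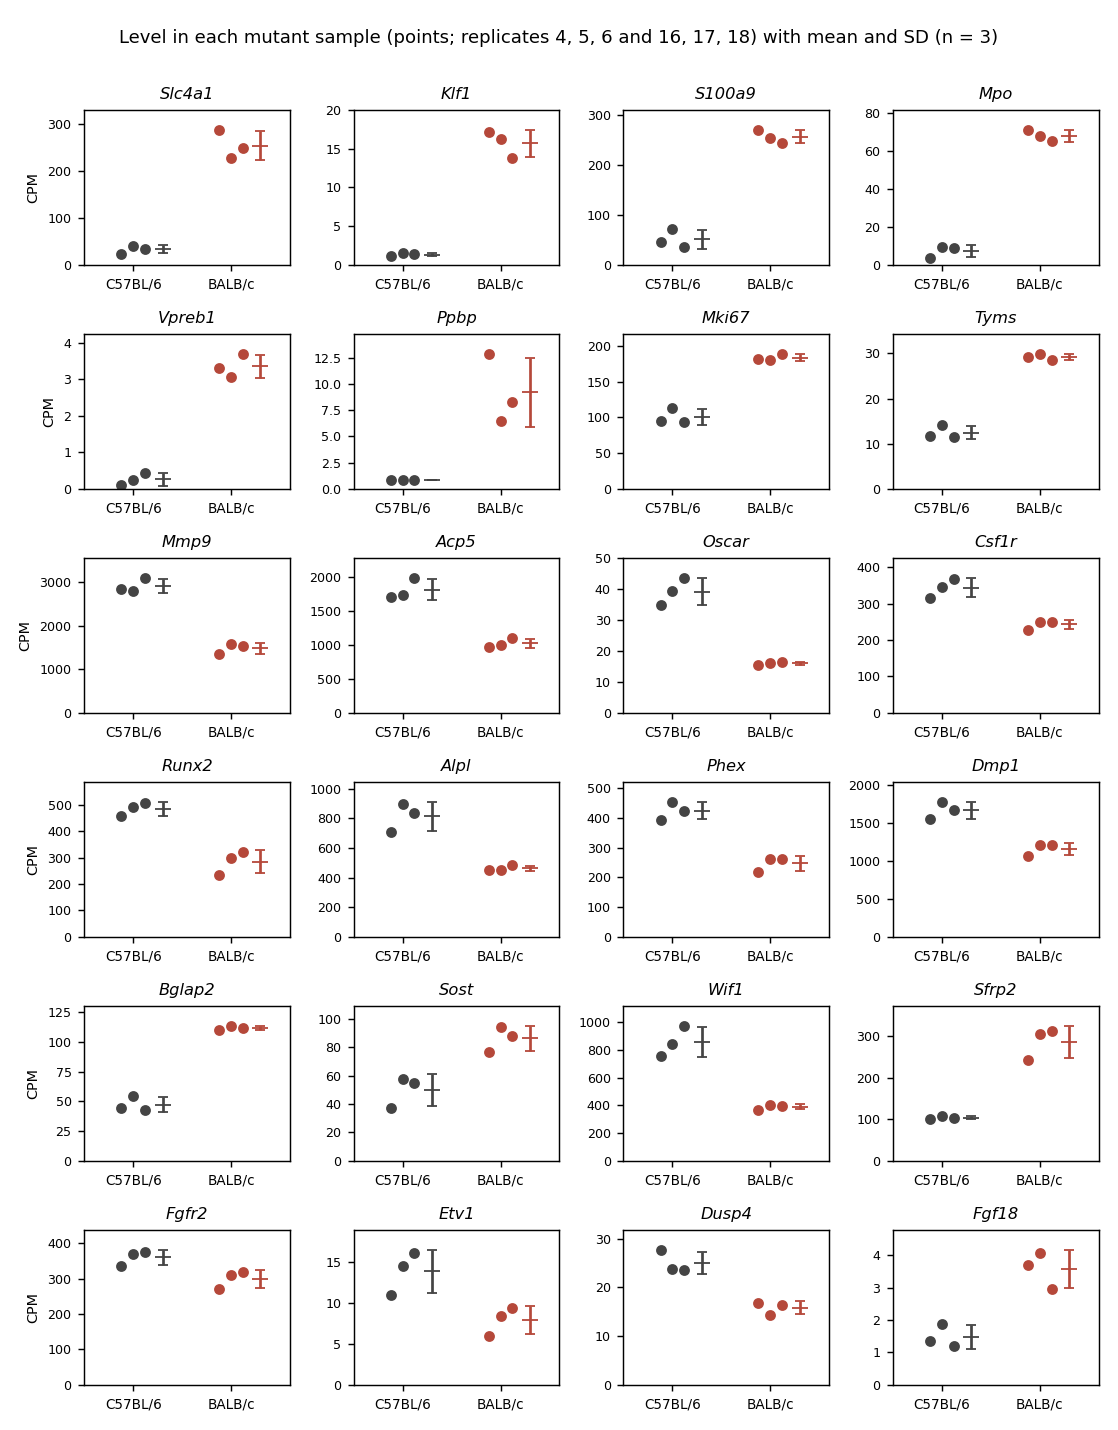
CPM (y axis, linear from 0) in each of the 6 mutants (points), 1 panel per gene, with each group's mean and SD (n = 3) drawn beside its points and samples 4, 5, 6 and 16, 17, 18 from left to right. Blood and proliferation genes lie higher in all BALB/c mutants, osteoclast and mineralisation genes lower, and Fgfr2 differs little.

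Fgfr2 itself was at 337, 370.0 and 375 CPM in C57BL/6 mutants and 271, 310.3 and 318 CPM in BALB/c mutants (log2 -0.27, SE 0.10, edgeR adjusted p 0.0543). The gene lies at chr7:130162451-130266808 on mm10. Every BALB/c value was below every C57BL/6 value, and the difference did not pass the threshold over all genes. The adjusted p of Fgfr2 ranged from 0.0164 to 0.533 over the alternative edgeR, DESeq2 and limma fits, and in the authors' deposited table, made with C57BL/6 minus BALB/c, its log2 fold change was 0.22 with a q-value of 0.0339. These counts do not separate the mutant from the normal allele. In the wild type samples the mean was 249 CPM in C57BL/6 and 282 CPM in BALB/c (log2 0.18, edgeR adjusted p 0.153), and the strain difference in mutants minus that in wild type was -0.45 (SE 0.14, edgeR adjusted p 0.0638).

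None of the 7 FGF receptor genes was called by edgeR, while 3 had an unadjusted p under 0.05, DESeq2 called 3 lower and limma-voom called 1 lower. Fits without 1 sample called 1 higher (without C57BL/6 mutant 4 or without BALB/c mutant 18) and 1 lower (without C57BL/6 mutant 4 or without BALB/c mutant 17). Fgfr1 was at 553, 584 and 616 CPM and 467, 520.1 and 501 CPM (log2 -0.24, SE 0.093, edgeR adjusted p 0.0661), and Fgfr3, whose groups overlapped, at 206, 177 and 176 CPM and 148, 179 and 150.0 CPM (log2 -0.23, SE 0.090, edgeR adjusted p 0.0659). Among ligands, 3 of 10 tested were higher and 0 lower. Fgf18, a ligand made at the osteogenic fronts of sutures, was at 1.36, 1.89 and 1.19 CPM in the C57BL/6 mutants and 3.72, 4.09 and 2.95 CPM in the BALB/c mutants, 2.42-fold higher in BALB/c (log2 1.28, SE 0.25, edgeR adjusted p 0.00187). Fgf10, a ligand of the FGFR2 splice form of epithelia, was at 2.71, 2.23 and 1.72 CPM and 3.66, 3.49 and 3.59 CPM (log2 0.68, SE 0.20, edgeR adjusted p 0.0204), with edgeR adjusted p of 0.0737 without C57BL/6 mutant 6, 0.0538 without BALB/c mutant 16 and 0.0504 without BALB/c mutant 18. Fgf16 was close to the limit of detection, at 0.136, 0.0485 and 0.0539 CPM and 0.300, 0.172 and 0.295 CPM (log2 1.61, SE 0.56, edgeR adjusted p 0.0411), with edgeR adjusted p of 0.122 without C57BL/6 mutant 5, 0.117 without C57BL/6 mutant 6, 0.108 without BALB/c mutant 16 and 0.108 without BALB/c mutant 18. Only Fgf18 was thus called in all 7 fits, and the ligand count was 1 without C57BL/6 mutant 6, 1 without BALB/c mutant 16 and 1 without BALB/c mutant 18.

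Targets and inhibitors of the FGF and ERK signal were lower where they differed, with 7 of 16 tested lower and 0 higher by TMM scaling, and 5 lower and 2 higher with total counts and 9 lower and 1 higher with DESeq2. Fits without C57BL/6 mutant 5 or without BALB/c mutant 17 also called 1 higher. The summed level of the list overlapped, at 5359.8 to 6768 CPM in C57BL/6 mutants and 6408 to 7098 CPM in BALB/c mutants. In wild type 7 of the 16 were also lower in BALB/c and 4 higher. The strain difference differed between the genotypes for 1 of them, Etv5. The ETS factors are induced by the signal. Etv1, an ETS factor, was at 11, 14.5 and 16.1 CPM in the C57BL/6 mutants and 6.00, 8.39 and 9.35 CPM in the BALB/c mutants, 1.74-fold lower in BALB/c (log2 -0.80, SE 0.20, edgeR adjusted p 0.00814). Etv5, a second ETS factor, was at 54.5, 60.7 and 62.3 CPM in the C57BL/6 mutants and 43.2, 49.9 and 42.4 CPM in the BALB/c mutants, 1.31-fold lower in BALB/c (log2 -0.39, SE 0.081, edgeR adjusted p 0.00283). Etv4, the other ETS factor of the list, was at 8.68, 5.34 and 5.50 CPM and 4.38, 4.43 and 4.77 CPM and was not called by edgeR (log2 -0.52, SE 0.22, edgeR adjusted p 0.0783), while DESeq2 called it lower. Inhibitors were lower alongside them. Dusp4, a phosphatase of ERK, was at 27.7, 23.8 and 23.6 CPM in the C57BL/6 mutants and 16.7, 14.4 and 16.4 CPM in the BALB/c mutants, 1.58-fold lower in BALB/c (log2 -0.66, SE 0.16, edgeR adjusted p 0.00822). Spred1, an inhibitor of Ras signalling, was at 57.6, 63.7 and 61.2 CPM in the C57BL/6 mutants and 35.3, 40.5 and 39.7 CPM in the BALB/c mutants, 1.58-fold lower in BALB/c (log2 -0.66, SE 0.088, edgeR adjusted p 0.000148). Il17rd, the receptor inhibitor Sef, was at 22.8, 14.8 and 19.5 CPM in the C57BL/6 mutants and 12.5, 10.8 and 9.15 CPM in the BALB/c mutants, 1.76-fold lower in BALB/c (log2 -0.81, SE 0.22, edgeR adjusted p 0.0141). Il17rd was not called without BALB/c mutant 18 (edgeR adjusted p 0.0569), and was at log2 -0.49 and edgeR adjusted p 0.106 with offsets for coding length. Spry4, a Sprouty inhibitor, was at 92.8, 106 and 77.6 CPM and 65.7, 60.4 and 74.4 CPM (log2 -0.46, SE 0.15, edgeR adjusted p 0.0318), with edgeR adjusted p of 0.0528 without C57BL/6 mutant 4, 0.117 without C57BL/6 mutant 5, 0.0864 without BALB/c mutant 16 and 0.112 without BALB/c mutant 17. The edgeR adjusted p was also 0.0685 with total counts and 0.12 with offsets for coding length. Dusp6 and Spry2, both widely used as readouts of the signal, overlapped between the strains. Dusp6 was at 84.2, 85.2 and 84.6 CPM and 92.9, 83.5 and 85.3 CPM (log2 0.04, SE 0.063, edgeR adjusted p 0.639), and Spry2 at 23.3, 26 and 23.1 CPM and 26, 23.1 and 24.9 CPM (log2 0.03, SE 0.069, edgeR adjusted p 0.786).

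The Wnt list split evenly, with 6 of 23 tested genes higher and 7 lower. Secreted inhibitors went both ways. Wif1, a secreted inhibitor that binds Wnt ligands, was at 753, 841 and 972 CPM in the C57BL/6 mutants and 369, 404 and 392 CPM in the BALB/c mutants, 2.20-fold lower in BALB/c (log2 -1.14, SE 0.12, edgeR adjusted p 2.98e-05). Notum, an enzyme that inactivates Wnt ligands, was at 14.9, 15.3 and 18.4 CPM in the C57BL/6 mutants and 7.61, 7.15 and 6.94 CPM in the BALB/c mutants, 2.24-fold lower in BALB/c (log2 -1.16, SE 0.16, edgeR adjusted p 0.000215). Sfrp2, a secreted Frizzled-related inhibitor, was at 102, 108 and 103 CPM in the C57BL/6 mutants and 242, 304 and 312 CPM in the BALB/c mutants, 2.75-fold higher in BALB/c (log2 1.46, SE 0.13, edgeR adjusted p 9.67e-06). Each of these 3 was separated between the strains by between 2- and 3-fold. Wnt11, a Wnt ligand, was at 1.58, 1.31 and 1.35 CPM in the C57BL/6 mutants and 5.46, 3.79 and 3.20 CPM in the BALB/c mutants, 2.92-fold higher in BALB/c (log2 1.55, SE 0.25, edgeR adjusted p 0.000539). Lrp4, a receptor that anchors sclerostin, was at 414, 417 and 459 CPM in the C57BL/6 mutants and 234, 244 and 258 CPM in the BALB/c mutants, 1.75-fold lower in BALB/c (log2 -0.81, SE 0.090, edgeR adjusted p 4.23e-05). Axin2, a general target of the pathway, was at 17.4, 14 and 13.7 CPM and 17.3, 19.8 and 17.6 CPM (log2 0.28, SE 0.10, edgeR adjusted p 0.0502), with overlapping groups. Of 16 alternative fits, 7 called it higher, among them the fit without C57BL/6 mutant 4 (edgeR adjusted p 0.00609).

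In the BMP and TGF-beta list, 5 of 26 tested were higher and 6 lower, and 9 were higher with total counts and 3 higher without C57BL/6 mutant 4 and BALB/c mutant 16. Bmpr2, a type II BMP receptor, was at 14.9, 14.8 and 14 CPM in the C57BL/6 mutants and 5.58, 7.96 and 7.48 CPM in the BALB/c mutants, 2.07-fold lower in BALB/c (log2 -1.05, SE 0.13, edgeR adjusted p 7.94e-05). Tgfbr1, the type I TGF-beta receptor, was at 159, 159 and 155 CPM in the C57BL/6 mutants and 84.7, 89.3 and 92.5 CPM in the BALB/c mutants, 1.78-fold lower in BALB/c (log2 -0.83, SE 0.071, edgeR adjusted p 6.81e-06). Id1, a BMP target gene, was at 82.2, 91.4 and 94.3 CPM in the C57BL/6 mutants and 49, 53.7 and 51.6 CPM in the BALB/c mutants, 1.74-fold lower in BALB/c (log2 -0.80, SE 0.15, edgeR adjusted p 0.00141). The receptors and the target were separated in every sample. Ltbp2, a microfibril protein of the latent TGF-beta binding family, was at 68.4, 71.4 and 79.2 CPM in the C57BL/6 mutants and 173, 164 and 132 CPM in the BALB/c mutants, 2.14-fold higher in BALB/c (log2 1.10, SE 0.099, edgeR adjusted p 9.67e-06). Grem1, a secreted BMP antagonist, was at 1.08, 1.31 and 1.19 CPM in the C57BL/6 mutants and 3.24, 2.24 and 2.07 CPM in the BALB/c mutants, 2.10-fold higher in BALB/c (log2 1.07, SE 0.28, edgeR adjusted p 0.0105). In the hedgehog and PTHrP list, 2 of 10 were higher and 3 lower, and the 2 higher calls fell to 0 without C57BL/6 mutant 4 or without C57BL/6 mutant 5, and to 1 without C57BL/6 mutant 6, BALB/c mutant 16 or BALB/c mutant 18. Ptch1, the hedgehog receptor and a target of the pathway, was at 66.8, 74.8 and 68.6 CPM in the C57BL/6 mutants and 28.7, 32.2 and 40.1 CPM in the BALB/c mutants, 2.08-fold lower in BALB/c (log2 -1.06, SE 0.14, edgeR adjusted p 0.000168). Gli3, a transcription factor of the pathway, was at 54.6, 61.5 and 60.8 CPM in the C57BL/6 mutants and 30.3, 32.1 and 35.3 CPM in the BALB/c mutants, 1.81-fold lower in BALB/c (log2 -0.86, SE 0.078, edgeR adjusted p 1.09e-05). Gli1, the other common target, overlapped at 62, 77.9 and 61.2 CPM and 61, 64.8 and 69.1 CPM (log2 -0.04, SE 0.13, edgeR adjusted p 0.815).

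Of 26 genes linked to craniosynostosis and sutures, 6 were higher and 5 lower. Il11ra1, the mouse counterpart of the interleukin 11 receptor gene mutated in some human craniosynostosis, was at 13.6, 12.4 and 12.8 CPM in the C57BL/6 mutants and 35.8, 38.4 and 34.3 CPM in the BALB/c mutants, 2.80-fold higher in BALB/c (log2 1.49, SE 0.083, edgeR adjusted p 2.34e-07). Of its words, 57% occur in other genes, which include near-identical copies of the receptor. Msx1, a homeobox gene of skull mesenchyme, was at 8.72, 8.44 and 9.48 CPM in the C57BL/6 mutants and 14.7, 18 and 18 CPM in the BALB/c mutants, 1.90-fold higher in BALB/c (log2 0.93, SE 0.13, edgeR adjusted p 0.000258). Tcf12, the partner of TWIST1, with mutations found in coronal synostosis, was at 143, 152 and 156 CPM in the C57BL/6 mutants and 94.1, 108 and 104 CPM in the BALB/c mutants, 1.47-fold lower in BALB/c (log2 -0.56, SE 0.060, edgeR adjusted p 3.56e-05). Twist1 was at 87.3, 90.6 and 98.4 CPM and 99.3, 104 and 105 CPM, higher in every BALB/c sample but not called (log2 0.16, SE 0.14, edgeR adjusted p 0.422).

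The genes with the largest differences called in all 7 fits, averaging at least 1 CPM, were mostly present in 1 strain and near 0 in the other, and most differed likewise in wild type. Absent from all C57BL/6 mutants were Gbp1 (BALB/c 4.20, 2.07 and 3.20 CPM, at least 42.7-fold higher), Dmrtb1 (2.76, 2.71 and 2.12 CPM, at least 34.3-fold) and H2-Ea-ps (2.46, 2.58 and 1.57 CPM, at least 29.9-fold), with a floor of 3 counts per library (at least 21.4-fold, 17.1-fold and 14.9-fold with the counts halved). Gbp1 encodes an interferon-induced GTPase, and H2-Ea-ps is a class II gene that C57BL/6 mice do not express. Clec2g, a C-type lectin, was absent from all BALB/c mutants and at 2.35, 2.13 and 2.59 CPM in C57BL/6, at least 31-fold lower in BALB/c. Trim12a was at 5.02, 5.67 and 7.11 CPM and 0, 0 and 0.0492 CPM, and Olfr1033, an olfactory receptor gene, at 5.20, 4.17 and 5.33 CPM and 0.0600, 0 and 0 CPM. A few counts at most support the lower value of these genes, so no fold is given. Tyr, tyrosinase, is mutated in the albino BALB/c strain, and it was at 2.62, 3.01 and 2.26 CPM and 0.0600, 0.215 and 0.0492 CPM (log2 -4.50, SE 0.57, edgeR adjusted p 0.000106). Marco, a scavenger receptor of macrophages, was at 6.46, 4.37 and 4.36 CPM in the C57BL/6 mutants and 0.0600, 0.172 and 0.197 CPM in the BALB/c mutants, 33.7-fold lower in BALB/c (log2 -5.08, SE 0.53, edgeR adjusted p 2.85e-05). Pgbd5, a transposase-derived gene, was at 5.65, 4.46 and 5.44 CPM and 0.180, 0.0430 and 0.197 CPM (log2 -5.22, SE 0.43, edgeR adjusted p 5.41e-06). The BALB/c values of Tyr, Marco and Pgbd5 also rest on few counts, so the sizes of their differences are imprecise.

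Others higher in BALB/c were Sstr1, a somatostatin receptor, at 0.0904, 0.0970 and 0.0539 CPM and 6.00, 5.08 and 5.51 CPM (log2 6.03, SE 0.27, edgeR adjusted p 4.80e-08), and Masp2, a protease of the complement system, at 0.136, 0.0485 and 0.0539 CPM and 2.94, 2.76 and 3.05 CPM. Tpsab1, a tryptase of mast cells, was at 0.271, 0.291 and 0.754 CPM and 11.8, 8.27 and 5.12 CPM (log2 4.27, SE 0.56, edgeR adjusted p 0.000129). The class I gene H2-Q2 (0.0904, 0.0485 and 0 CPM and 3.18, 2.02 and 1.82 CPM) and the serpin Serpina3h (0, 0.0485 and 0 CPM and 2.76, 2.24 and 2.61 CPM) have many similar copies, with 30.8% and 38.8% of shared words. Col4a6, a basement membrane collagen, was at 3.03, 3.40 and 1.08 CPM and 0.120, 0.129 and 0.0492 CPM (log2 -4.61, SE 0.73, edgeR adjusted p 0.000892), and Sowahb at 2.35, 1.55 and 2.59 CPM and 0.0600, 0.129 and 0.0984 CPM (log2 -4.41, SE 0.42, edgeR adjusted p 1.47e-05). Each of these was separated by strain in all 6 mutants. Apart from Tpsab1, the lower group of each held at most a few counts per library, so the size of its difference is imprecise. For Adam28 the C57BL/6 level was carried by mutant 4, at 5.83, 0.728 and 0.647 CPM against 0.120, 0.0430 and 0.0492 CPM, and for Myh8 the BALB/c level by mutant 16, at 135, 6.24 and 0.344 CPM against 0.136, 0.146 and 0.323 CPM. Neither was called with limma-voom (adjusted p 0.0901 and 0.483).

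The largest differences also included 2 microRNA loci, and the transcripts that their counts come from were not identified. The mature sequence of miR-703 is printed with its seed (bases 2 to 8) in capitals, because its locus was among the most strongly strain-divided (RefSeq, GRCm38.p6, chr5:98475616-98475636, minus strand).
Mir703: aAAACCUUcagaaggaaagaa
Counts at the Mir703 locus stood at 0.0452, 0 and 0.162 CPM in C57BL/6 mutants and 3.60, 4.65 and 4.04 CPM in BALB/c mutants, and 47.4% of its words occur in other genes. Mir5109 was at 37.7, 43 and 44.8 CPM in C57BL/6 mutants and 0, 0.0430 and 0 CPM in BALB/c mutants. An mRNA library does not capture mature microRNAs, so these counts say nothing of their level.

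At the antigen presentation loci the strains carry different haplotypes. Of 16 class I genes tested, 8 were higher and 4 lower, and of 10 class II genes, 2 were higher and 2 lower (4 lower without C57BL/6 mutant 5). H2-K1, a classical class I gene, was at 45.8, 51.1 and 52.4 CPM and 32.9, 25.4 and 30.1 CPM (log2 -0.76, SE 0.14, edgeR adjusted p 0.00117), and H2-D1 at 78.3, 83.2 and 84.5 CPM and 55.6, 51.1 and 56.3 CPM (log2 -0.59, SE 0.065, edgeR adjusted p 3.82e-05). H2-Q10 was at 1.36, 1.79 and 1.29 CPM and 0, 0.0430 and 0.0984 CPM, while H2-T24 was higher in BALB/c, at 1.45, 1.65 and 1.45 CPM and 9.23, 8.78 and 11.9 CPM (log2 2.71, SE 0.20, edgeR adjusted p 2.28e-06). Of the class II genes, H2-DMb1 was at 3.30, 3.25 and 3.23 CPM and 0.120, 0.344 and 0.197 CPM (log2 -3.83, SE 0.34, edgeR adjusted p 8.49e-06) and H2-Aa at 5.74, 3.64 and 4.63 CPM and 1.68, 1.81 and 1.82 CPM (log2 -1.40, SE 0.22, edgeR adjusted p 0.00046). These genes have similar copies and many strain variants, so reads from BALB/c may be placed differently. Of 17 guanylate-binding and immunity GTPases, 7 were higher and 0 lower (11 higher without BALB/c mutant 17), and Tgtp1, with no count in C57BL/6 mutants, was at 0.839, 0.517 and 0.492 CPM in BALB/c, at least 8.35-fold higher. Interferon-induced genes gave 5 of 22 higher and 0 lower. Rsad2, the antiviral protein viperin, was at 4.88, 4.37 and 4.31 CPM in the C57BL/6 mutants and 14.9, 13.2 and 19.9 CPM in the BALB/c mutants, 3.53-fold higher in BALB/c (log2 1.82, SE 0.28, edgeR adjusted p 0.000397). Usp18, an inhibitor of interferon signalling, was at 1.13, 0.679 and 0.647 CPM in the C57BL/6 mutants and 2.58, 2.02 and 2.90 CPM in the BALB/c mutants, 3.04-fold higher in BALB/c (log2 1.6, SE 0.28, edgeR adjusted p 0.000962). Of 11 tested genes with known alleles in these strains, 2 were higher and 3 lower (3 and 2 with total counts). Nnt, deleted in part in the C57BL/6J substrain, overlapped at 64.1, 68.4 and 69.8 CPM and 61.2, 61.6 and 65.1 CPM (log2 -0.11, SE 0.080, edgeR adjusted p 0.324), and Ly6a, the Sca-1 antigen, at 4.38, 4.41 and 5.71 CPM and 11.9, 5.08 and 4.08 CPM (log2 0.54, SE 0.36, edgeR adjusted p 0.261).

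Among genes averaging at least 100 CPM over the mutants, the largest decreases in BALB/c called in all 7 fits were between 2- and 3-fold. Arsb, a lysosomal sulfatase of glycosaminoglycans, was at 429, 485 and 513 CPM in the C57BL/6 mutants and 161, 179 and 194 CPM in the BALB/c mutants, 2.67-fold lower in BALB/c (log2 -1.42, SE 0.12, edgeR adjusted p 5.47e-06). Prcp, a lysosomal peptidase, was at 153, 164 and 203 CPM in the C57BL/6 mutants and 70.9, 77.7 and 79.5 CPM in the BALB/c mutants, 2.28-fold lower in BALB/c (log2 -1.19, SE 0.097, edgeR adjusted p 4.93e-06). Grn, progranulin, was at 719, 591 and 687 CPM in the C57BL/6 mutants and 299.9, 304 and 313 CPM in the BALB/c mutants, 2.18-fold lower in BALB/c (log2 -1.12, SE 0.14, edgeR adjusted p 9.93e-05). These lysosomal and secreted proteins were separated in every sample. Fat1, a giant protocadherin, was at 675, 812 and 743 CPM in the C57BL/6 mutants and 289.5, 348 and 369 CPM in the BALB/c mutants, 2.22-fold lower in BALB/c (log2 -1.15, SE 0.12, edgeR adjusted p 2.98e-05). Sema5a, a semaphorin, was at 189, 198 and 218 CPM in the C57BL/6 mutants and 83.2, 96.9 and 95.9 CPM in the BALB/c mutants, 2.19-fold lower in BALB/c (log2 -1.13, SE 0.087, edgeR adjusted p 3.18e-06). Zfhx4, a zinc finger homeobox gene, was at 188, 214 and 208 CPM in the C57BL/6 mutants and 84.2, 95.1 and 102 CPM in the BALB/c mutants, 2.16-fold lower in BALB/c (log2 -1.11, SE 0.081, edgeR adjusted p 2.07e-06). Cd200, a membrane glycoprotein that restrains myeloid cells, was at 199, 240.1 and 227 CPM in the C57BL/6 mutants and 96.7, 109 and 110.0 CPM in the BALB/c mutants, 2.11-fold lower in BALB/c (log2 -1.08, SE 0.079, edgeR adjusted p 2.18e-06). Adam12, a metalloproteinase of mesenchymal cells, was at 299, 325 and 361 CPM in the C57BL/6 mutants and 149, 155 and 169.8 CPM in the BALB/c mutants, 2.08-fold lower in BALB/c (log2 -1.06, SE 0.13, edgeR adjusted p 0.000101). Hspa1a, an inducible heat shock protein, varied within BALB/c, at 49.6, 78.8 and 118 CPM against 173, 173 and 157 CPM (log2 -1.03, SE 0.26, edgeR adjusted p 0.00846), and 65.2% of its words occur in other genes.

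The largest increases among these abundant genes fell on housekeeping genes with many copies in the genome, beside Beta-s, Slc4a1, S100a9 and Sfrp2. Rplp2 was at 32.5, 32.4 and 27.8 CPM and 178, 176 and 179 CPM (log2 2.52, SE 0.089, edgeR adjusted p 4.49e-09), with 22.6% of shared words. Rpl31 (3.62-fold), Rps15a (3.55-fold) and Rps26 (2.77-fold), also ribosomal proteins, Ppia (2.95-fold), a cyclophilin, and Tuba1b (3.01-fold), a tubulin, were higher too. Of 97 ribosomal protein genes, a set picked after their values were seen, 27 were higher and 9 lower with a median log2 of 0.09. Below this level, Gapdh, a glycolysis enzyme with 27.1% of shared words, was at 11.9, 13.4 and 12.6 CPM and 70, 64.7 and 74.3 CPM, 5.51-fold higher (log2 2.46, SE 0.079, edgeR adjusted p 2.35e-09). In the authors' deposited table, made with C57BL/6 minus BALB/c, its log2 fold change was smaller in size, at -0.45. That table gave -0.85 for Il11ra1 and 1.88 for H2-K1, which also differ in size from the values given here. Over all genes the share called higher was larger where more of the sequence is shared with other genes. It was 16.7% for genes with at most 1% of shared words, 17.2% above 1% to 10%, 27.6% above 10% to 50% and 28.0% above 50%. The shares called lower in the same classes were 19.3%, 20.4%, 12.7% and 13.2%. The part of read placement in these differences was not tested.

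Several marker lists were carried by single libraries. In C57BL/6 mutant 4, genes of the nasal lining were abundant, with the summed airway and olfactory secretory list at 211 CPM against 1.02 and 2.42 CPM in mutants 5 and 6. In the BALB/c mutants this list summed to 1.02 to 1.72 CPM. Of its 15 genes tested, 6 were lower and 0 higher in BALB/c. The lower count was 0 without C57BL/6 mutant 4, 12 without C57BL/6 mutant 5 and 11 without C57BL/6 mutant 6, and 1, 0 and 0 without BALB/c mutants 16, 17 and 18. Scgb1a1, Obp1a and Gp2 of that list had no count in any mutant. For olfactory neurons 7 of 13 were lower and 0 higher, and 1 and 1 without C57BL/6 mutant 4. The lower count was 10 without C57BL/6 mutant 5 or 6, and 1, 2 and 1 without BALB/c mutants 16, 17 and 18. Omp, the olfactory marker protein, was at 36.1, 0.485 and 0.700 CPM and 0.300, 0.301 and 0.443 CPM. For epithelium and epidermis 5 of 16 were lower and 0 higher, and 0 and 1 without C57BL/6 mutant 4. The lower count was 6 without C57BL/6 mutant 5 or 6, and 0, 1 and 0 without BALB/c mutants 16, 17 and 18. In this list Krt8, a simple epithelial keratin, was at 15, 0.146 and 0.162 CPM and 0, 0.818 and 0.0984 CPM. The genes with the largest decreases that lost their call without 1 sample were Ugt2a1, Calb2, Sec14l3, Bpifa1 and Atp13a5. Each was at 0 to 0.269 CPM in every mutant but C57BL/6 mutant 4, where they were at 24.2, 11, 44.9, 39.4 and 6.15 CPM, and without that sample their edgeR adjusted p ran from 0.184 to 1. Leaving out 1 of the BALB/c mutants also ended these calls.

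Skeletal muscle genes stood out in BALB/c mutant 16, where the list summed to 606 CPM against 56.3 CPM in 17, 25.1 CPM in 18 and 26.7 to 34 CPM in C57BL/6 mutants. The test called 16 of 20 higher and 0 lower, but 3 higher and 1 lower without that sample, 10 higher without C57BL/6 mutant 4, 4 higher without C57BL/6 mutant 5 and 8 higher without C57BL/6 mutant 6. Myh3, the embryonic myosin heavy chain, was at 21.9, 2.15 and 0.492 CPM against 0.226, 0.0485 and 0.0539 CPM, and Acta1, skeletal actin, at 155, 9.38 and 0.886 CPM against 0.542, 0.340 and 1.99 CPM. Ckm, muscle creatine kinase, was at 28.6, 1.89 and 0.0492 CPM against 0.271, 0.0970 and 0.269 CPM, and Myl1, a myosin light chain, at 35.3, 2.84 and 0.246 CPM against 0.0904, 0.146 and 0.862 CPM. Without BALB/c mutant 16 the edgeR adjusted p of these 4 genes ran from 0.0769 (Myh3) to 0.338 (Myl1). Atp1b4, also of muscle, was absent from C57BL/6 mutants and at 7.85, 0.387 and 0 CPM in BALB/c. Genes of Schwann cells, the glia of nerves, followed in the same sample, with a summed level of 895 CPM against 174 and 163 CPM and 153 to 233 CPM in C57BL/6. Of 10 tested, 2 were higher and 1 lower. The higher count was 0 without BALB/c mutant 16, 1 without C57BL/6 mutant 4 or 5, and 4 without BALB/c mutant 17 or 18, with 0 lower without BALB/c mutant 17. Foxd3, a neural crest and glial factor, was at 6.18, 0.990 and 1.38 CPM against 0.452, 0.291 and 0.593 CPM (log2 2.66, SE 0.73, edgeR adjusted p 0.0137, and adjusted p 0.092 without BALB/c mutant 16).

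Cartilage genes varied among samples of both strains. Col2a1, the main cartilage collagen, was at 1864, 83.6 and 112 CPM in C57BL/6 mutants and 882, 3805 and 667 CPM in BALB/c mutants (log2 1.38, SE 1.04, edgeR adjusted p 0.323). Only 1 of 18 cartilage genes was called, lower, and it was Col10a1, the collagen of hypertrophic cartilage, at 92.3, 10.5 and 6.30 CPM and 4.98, 7.92 and 9.6 CPM, with edgeR adjusted p of 0.69 without C57BL/6 mutant 4, 0.112 without BALB/c mutant 16, 0.0893 without BALB/c mutant 17 and 0.0682 without BALB/c mutant 18. Without C57BL/6 mutant 4 the list gave 12 higher and 0 lower, and without both C57BL/6 mutant 4 and BALB/c mutant 16 it gave 13 and 0. Whether the list was called thus depended on C57BL/6 mutant 4. Of the 660 genes at least 2-fold lower in BALB/c mutants, 187 were not called without C57BL/6 mutant 4, and of the 813 at least 2-fold higher, 132 were not called without BALB/c mutant 16. The erythroid, neutrophil, osteoclast, mitosis and mineralisation counts above moved by at most 1 gene when either sample was left out.

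**Figure D4:**
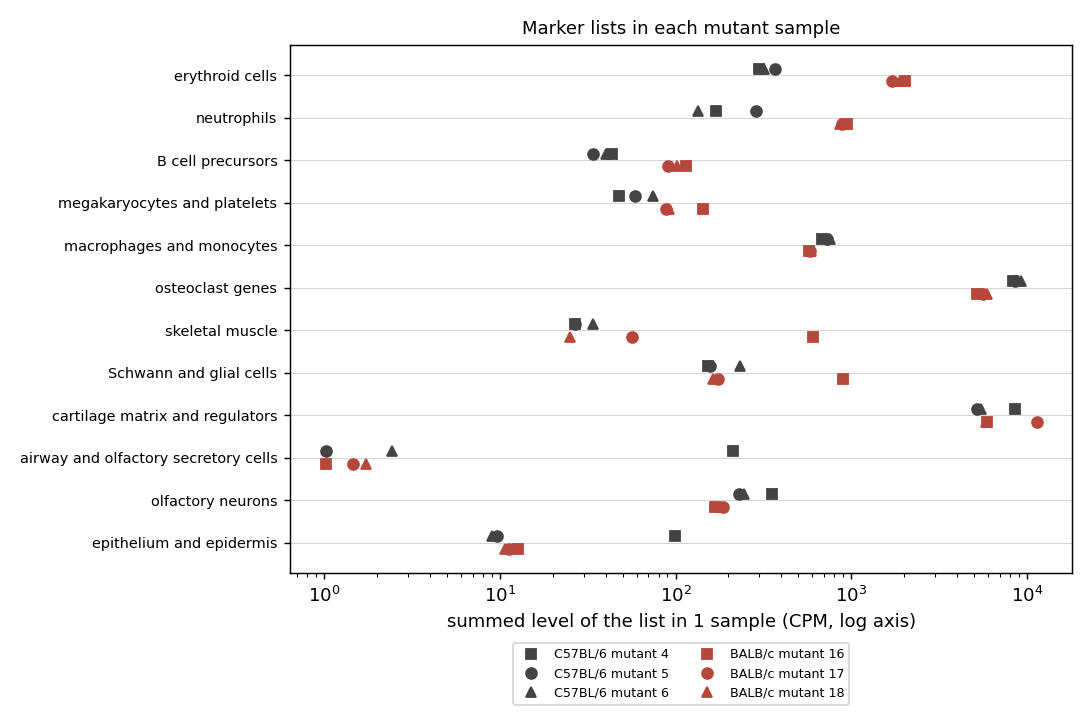
Summed CPM (x axis, log scale) of marker lists (rows) in each of the 6 mutants, with marker shapes for the samples and colours for the strains. Airway genes are high in C57BL/6 mutant 4 alone, muscle and Schwann genes are highest in BALB/c mutant 16, and the erythroid, neutrophil and osteoclast sums separate all samples by strain.

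Differences were spread over the genome, with 34.7% (chromosome 19) to 39.5% (chromosome 16) of the tested genes called on the autosomes and 34.8% on the X chromosome. Within 10 Mb of Fgfr2, 68 of 203 genes tested were called (33.5%), against 36.9% of all genes, and 41.9% of the same genes were called in wild type.

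The same strain contrast in wild type called 7847 genes (48.5%), 3698 higher in BALB/c (22.8%) and 4149 lower (25.6%). The C57BL/6 wild type samples all carried RNA of the nasal lining, with the airway and olfactory secretory list summing to 359 to 944 CPM in C57BL/6 and 0.977 to 2.69 CPM in BALB/c wild type. Epithelial genes summed to 174 to 405 CPM in C57BL/6 and 9.88 to 10.8 CPM in BALB/c, olfactory neuron genes to 414 to 607 CPM in C57BL/6 and 175 to 183 CPM in BALB/c, and cartilage genes to 11768 to 13585 CPM in C57BL/6 and 5318 to 6310.2 CPM in BALB/c. In wild type 14 of 15 airway genes, 13 of 16 epithelial genes, 13 of 13 olfactory genes and 10 of 18 cartilage genes were lower in BALB/c. Among the C57BL/6 mutants, mutant 4 had the highest of each of these sums and lay below every C57BL/6 wild type sample. The part of this tissue in the wild type counts and in the tests that use them was not tested. Both comparisons called 3851 genes, which are 64.5% of those called in mutants and 49.1% of those called in wild type, and 3697 of them had the same direction. Across all genes tested the strain differences in mutants and wild type correlated at a Pearson r of 0.77 and a Spearman rho of 0.61, a description only, since genes are not independent and both comparisons share the flow cells. The strain difference in mutants was itself different from that in wild type for 1626 genes (10%), 884 more positive in mutants (5.46%) and 742 more negative (4.58%). With total counts the split was 1672 and 175, DESeq2 called 2686, and the count ran from 624 (without C57BL/6 mutant 6) to 3129 (without C57BL/6 mutant 4) when 1 of the 12 samples was left out. Of these genes, 919 were also called in mutants, and 513 of those were not called in wild type.

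Many members of the blood, proliferation and osteoclast lists were among these genes, where 10% of all genes were. For 14 of 18 erythroid genes and 10 of 11 heme genes the strain difference was more positive in mutants, and the median erythroid log2 difference was 2.96 in mutants and 0.45 in wild type. Klf1 averaged 1.30 CPM in C57BL/6 mutants, 15.7 CPM in BALB/c mutants, 7.38 CPM in C57BL/6 wild type and 9.09 CPM in BALB/c wild type, and its strain difference was larger in mutants by 3.30 (SE 0.28, edgeR adjusted p 0.000119) on the log2 scale. The wild type groups thus lay between the mutant groups. Mki67 also had both wild type means between the mutant means, at 100.2, 184, 169 and 133 CPM, with a difference of 1.22 (SE 0.12, edgeR adjusted p 0.000342). For 18 of 19 mitosis genes and 10 of 19 replication genes the difference was more positive in mutants. Among osteoclast genes 12 were more negative and 1, Car2, more positive. When 1 of the 12 samples was left out, 14 or 15 erythroid, 16 to 19 mitosis and 7 to 13 replication genes were more positive, and 10 to 13 osteoclast genes more negative. The heme count of 10 was 6 to 9 in these fits. For cartilage genes, 2 of 18 were more positive, but 16 without C57BL/6 mutant 4. Mmp9 averaged 2907 CPM in C57BL/6 mutants and 1489.5, 1386 and 1479 CPM in C57BL/6 wild type, BALB/c wild type and BALB/c mutants, so the C57BL/6 mutants stood apart, with a difference of -0.87 (SE 0.14, edgeR adjusted p 0.00484). Wif1 had the same pattern, at 855 CPM in C57BL/6 mutants and 443, 460.0 and 388 CPM in the others, with a difference of -1.19 (SE 0.17, edgeR adjusted p 0.00273).

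Of the genes called in both tests, the strongest tests of a negative difference were for Dcstamp, Vdr, Pros1, Megf10 and Lifr. Dcstamp, which osteoclast precursors need to fuse, averaged 41.9 CPM in C57BL/6 mutants and 26.5 CPM in BALB/c mutants, against 18.5 CPM in C57BL/6 and 25.8 CPM in BALB/c wild type, a log2 difference between genotypes of -1.14 (SE 0.094, edgeR adjusted p 0.000109). Vdr, the vitamin D receptor, averaged 545 CPM in C57BL/6 mutants and 295 CPM in BALB/c mutants, against 266 CPM in C57BL/6 and 312 CPM in BALB/c wild type, a log2 difference between genotypes of -1.11 (SE 0.11, edgeR adjusted p 0.000306). Both stood highest in C57BL/6 mutants. Pros1, the anticoagulant protein S, averaged 145 CPM in C57BL/6 mutants and 106 CPM in BALB/c mutants, against 83.5 CPM in C57BL/6 and 102 CPM in BALB/c wild type, a log2 difference between genotypes of -0.73 (SE 0.090, edgeR adjusted p 0.00131). Megf10, an engulfment receptor, averaged 49.5 CPM in C57BL/6 mutants and 38.1 CPM in BALB/c mutants, against 30.8 CPM in C57BL/6 and 42.2 CPM in BALB/c wild type, a log2 difference between genotypes of -0.83 (SE 0.10, edgeR adjusted p 0.00144). Lifr, the receptor for leukemia inhibitory factor, averaged 387 CPM in C57BL/6 mutants and 252 CPM in BALB/c mutants, against 191 CPM in C57BL/6 and 252 CPM in BALB/c wild type, a log2 difference between genotypes of -1.02 (SE 0.13, edgeR adjusted p 0.00155). The strongest tests of a positive difference were for Spnb1, Ermap, Rhd, Plk1 and Cd24a. Spnb1, the red cell beta-spectrin, averaged 14.8 CPM in C57BL/6 mutants and 75 CPM in BALB/c mutants, against 47.4 CPM in C57BL/6 and 46.3 CPM in BALB/c wild type, a log2 difference between genotypes of 2.38 (SE 0.16, edgeR adjusted p 4.19e-05). The same difference was 2.60 (SE 0.17, edgeR adjusted p 4.19e-05) for Ermap and 2.70 (SE 0.19, edgeR adjusted p 5.08e-05) for Rhd, both of the red cell membrane. Plk1, a kinase of mitosis, averaged 13.6 CPM in C57BL/6 mutants and 29.5 CPM in BALB/c mutants, against 23.3 CPM in C57BL/6 and 21.3 CPM in BALB/c wild type, a log2 difference between genotypes of 1.25 (SE 0.092, edgeR adjusted p 5.23e-05). Cd24a, a surface protein of red cells and B cell precursors, averaged 25.3 CPM in C57BL/6 mutants and 152 CPM in BALB/c mutants, against 91 CPM in C57BL/6 and 102 CPM in BALB/c wild type, a log2 difference between genotypes of 2.42 (SE 0.20, edgeR adjusted p 0.000109). The difference between genotypes of these 10 genes kept its call in each fit without 1 of the 12 samples, with an edgeR adjusted p of at most 0.00704. The strain difference of Megf10 in mutants itself was at log2 -0.08 and edgeR adjusted p 0.404 with offsets for coding length, and that of Lifr at log2 -0.22 and edgeR adjusted p 0.0715 with offsets for coding length. Other genes had nearly the same strain difference in both genotypes. Gapdh differed by log2 2.46 in mutants and 2.35 in wild type, and Il11ra1 by 1.49 and 1.43.

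**Figure D5:**
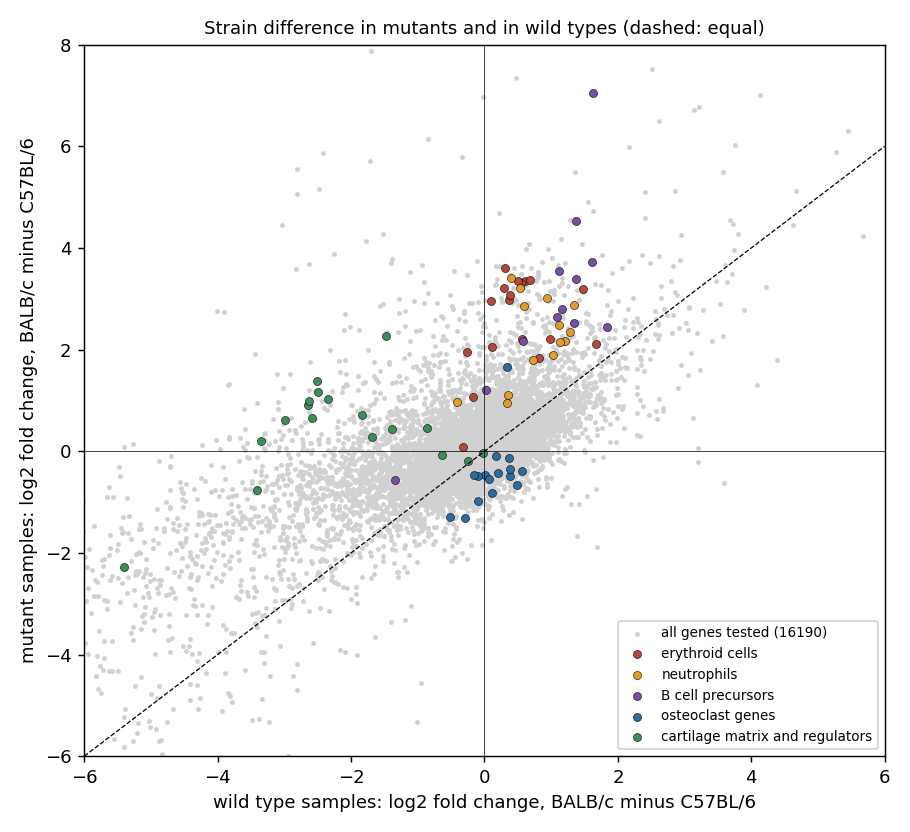
Strain difference (log2, BALB/c minus C57BL/6) in wild type (x axis) against that in mutants (y axis), 1 point per gene tested, with members of the erythroid, neutrophil, B cell precursor, osteoclast and cartilage lists coloured and the diagonal of equal difference dashed. The axes leave out 343 genes, most erythroid genes lie above the diagonal and most osteoclast genes below it.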

How the data were processed

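RNA sequencing libraries of frontal bone were made with an Illumina mRNA kit, per the labels. The authors deposited raw gene counts and RPKM values for 23358 genes, per the file headers, and the submitters' processing notes name bcl2fastq, TopHat2 2.0.6, HTSeq, DESeq2 and the mm10 build, with no role or order. The strand setting and annotation are not given in the sources used here. The assembly represents C57BL/6, and its effect on the alignment of BALB/c reads was not tested. The authors' counts were all even (0 odd values). The deposited RPKM values served only to derive each library total. The authors also deposited a table with a log2 fold change, a p-value and a q-value per gene and comparison, quoted for Fgfr2, Gapdh, Il11ra1 and H2-K1. Of the value columns, 0 belonged to no sample.

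The deposited counts went unchanged into edgeR 4.0.16 (R 4.3.3): filterByExpr by group (minimum count 10, total 15) left 16190 genes, TMM scaled the libraries (32349496 to 46521546 gene counts in mutants), and 1 quasi-likelihood model covered 12 samples in 4 groups. P-values were adjusted over all genes by the Benjamini-Hochberg method, two-sided, with 0.05 as the threshold. CPM values use TMM-adjusted library sizes. A fold is the log2 difference of the edgeR model turned back into a ratio. A fold given as a lower bound is instead a ratio of mean CPM, with the floor of counts standing in for the absent group. The SE is the one implied by the F statistic. Shared words are the percent of the 32-base words of a gene's GENCODE transcripts found in other genes. Lists (41, with 599 genes, 6 of them without a row) are described by counts and medians, with no set test. Alternatives were DESeq2 1.42.0, limma-voom (limma 3.58.1), RLE factors, total counts, 2 filters on low counts, offsets for coding length, only the samples compared, and each sample left out in turn. The fit was tested on simulated data.

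Members, lists and tests were chosen with earlier results of these data known. Genes were named by rule: Fgfr2, list members, per direction the 10 with the largest log2 fold change among genes called in all 7 fits without overlap at a mean of at least 1 CPM and of at least 100 CPM, the 5 largest among calls lost without 1 sample, and the 5 with the strongest test of the difference between genotypes. Predicted genes and identifiers on more than 1 row were skipped. Some list members are counted but not reported here by name.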

Additional observations from a re-analysis of the deposited data

Results flagged for a closer look

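The strain difference in mutants was set against that in wild type by a test of the difference itself, and they differed for 1626 genes by edgeR at an adjusted p under 0.05. The values below are log2 differences, mutants minus wild type, for the genes named in the text that passed this test, and a negative value means that BALB/c stood lower against C57BL/6 in mutants than in wild type. Among red cell and heme genes they were Klf1 3.30, Gata1 2.73, Slc4a1 2.85, Spnb1 2.38, Rhag 2.69, Rhd 2.70, Ermap 2.60, Hemgn 2.92, Epor 1.23, Alas2 1.65 and Beta-s 1.72. Among neutrophil, platelet, B cell and macrophage genes they were Mpo 2.68, Elane 3.01, Camp 1.54, Ppbp 3.72, Pf4 0.93, Itga2b 1.5, Rag1 1.59, Ebf1 0.77, Lyz2 0.61, Csf1r -0.75 and Cd68 -1.09. Among cell division genes they were Mki67 1.22, Plk1 1.25, Tyms 0.54 and Cdc6 1.00. Among osteoclast genes and their signals they were Mmp9 -0.87, Acp5 -0.94, Ctsk -0.96, Oscar -0.79, Ocstamp -1.03, Dcstamp -1.14, Car2 1.32, Ostm1 -0.50 and Tnfsf11 -0.72. Among osteoblast, mineral and osteocyte genes they were Sp7 -0.61, Enpp1 -0.73, Ank -1.12, Phex -0.78, Dmp1 -0.66, Spp1 -1.16, Bglap -0.63 and Mepe -0.65. Among FGF, Wnt and BMP genes they were Fgfr1 -0.46, Fgf10 1.02, Etv5 -0.51, Wif1 -1.19, Lrp4 -0.50 and Grem1 1.69. Among antigen presentation and interferon genes they were H2-D1 -0.33, H2-T24 1.20, Rsad2 1.43 and Usp18 1.68. Other genes were Arsb -0.87, Cd200 -0.71, Cd24a 2.42, Crtap -0.56, Lifr -1.02, Megf10 -0.83, Prcp -0.94, Pros1 -0.73, Rpl31 -0.48, Sema5a -0.65, Sstr1 2.27, Vdr -1.11 and Zfhx4 -0.44. Muscle genes, whose level in BALB/c mutants came mainly from mutant 16, were Acta1 8.30, Ckm 8.36 and Myh8 9.57. Each group held 3 samples, too few for the test of a single outlying value, and each of the 12 samples was left out in turn instead. Of the 69 differences, 40 kept the call in all 12 such fits. The other 29, whose highest edgeR adjusted p over these fits ran from 0.0508 (Lyz2) to 0.196 (Myh8), were Acta1, Bglap, Camp, Cdc6, Ckm, Crtap, Dmp1, Ebf1, Elane, Etv5, Fgf10, Fgfr1, Grem1, H2-D1, H2-T24, Lrp4, Lyz2, Mepe, Myh8, Ostm1, Pf4, Phex, Rpl31, Rsad2, Sp7, Tnfsf11, Tyms, Usp18 and Zfhx4.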

How the results depend on the processing

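No paired analysis was possible because the replicate numbers of the labels are not shared between groups. The count of genes differing between strains in mutants stayed within 1.5 times the 5968 reported under every alternative run, from 4316 (without C57BL/6 mutant 4 and BALB/c mutant 16) to 6344, and so did the wild type count. Directions moved with the scaling: genes higher and lower in BALB/c were 2914 and 3054 in mutants but 4039 and 1915 with total counts, 3698 and 4149 in wild type but 2221 and 4909, and the difference between genotypes was positive and negative for 884 and 742 but 1672 and 175. With offsets for coding length the counts higher and lower were 3005 and 2215 in mutants, 3686 and 3198 in wild type and 864 and 833 for the difference. That difference was the least stable count, at 2686 with DESeq2 and from 624 (without C57BL/6 mutant 6) to 3129 (without C57BL/6 mutant 4) when 1 sample was left out. The cause was not tested. Of 169 named genes, 147 were called, and 2 of these 147 reversed under 1 alternative. Reversals were not counted for the genes not called, of which some changed sign, such as Krt8 (log2 -6.49 to 1.62). Without C57BL/6 mutant 4 and BALB/c mutant 16 together, a choice made after seeing the data, Col10a1 went from -2.27 to 0.058 and Mbp, a myelin protein, from 2.22 to -0.085 on the log2 scale, since each rests on 1 of these samples. Leaving out 1 sample gave -2.76 to -0.15 for Col10a1 and 0.05 to 2.74 for Mbp. Among the 147, the call was lost in 20 without BALB/c mutant 16, in 17 with limma-voom (Acta1, Adam28, Atp13a5, Atp1b4, Bpifa1, Calb2, Ckm, Col10a1, Fgf16, Foxd3, Mbp, Myh3, Myh8, Myl1, Omp, Sec14l3 and Ugt2a1), in 9 with offsets for coding length (Il17rd, Lifr, Megf10, Mepe, Myl1, Nfatc1, Ppib, Spry4 and Ugt2a1) and in 2 with DESeq2. Halving the counts, also added after seeing the data, ended 1 of these calls. With 3 samples a group, the tests on simulated counts recovered 54% of 1.5-fold changes and 94% of 2-fold changes in the mutant comparison (15969 genes). Each share rests on 50 changed genes, none at a low level, with all genes outside the changed sets equal between groups. Far more genes were called in the data, so these shares do not measure the sensitivity of the comparison. Differences of 1.5-fold can be missed at this sample size.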

Other observations

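The lists not described above are given here beside 18% of all genes higher and 18.9% lower. Of 17 glycolysis genes, 4 were higher in BALB/c mutants and 1 lower (7 higher with total counts, 3 lower with DESeq2), Gapdh and Eno1 among them. Eno1, an enolase with 28.4% of shared words, was at 2.71, 2.18 and 1.99 CPM and 7.19, 9.64 and 9.35 CPM (log2 1.92, SE 0.19, edgeR adjusted p 1.76e-05). Of 23 immediate early genes, which respond within minutes to stimuli such as tissue digestion, 5 were higher and 3 lower (9 higher with total counts, and 1 lower without BALB/c mutant 16 or without BALB/c mutant 17), and their summed levels overlapped, at 18436 to 22279 CPM in C57BL/6 mutants and 20924 to 24151 CPM in BALB/c mutants. Genes of the endoplasmic reticulum stress response gave 0 of 14 higher and 3 lower, but 2 higher and 1 lower with total counts, 1 and 1 without C57BL/6 mutant 5, and 0 and 1 without BALB/c mutant 17. Endothelial genes gave 1 of 11 higher and 2 lower, and smooth muscle genes 2 of 9 higher and 1 lower. With total counts the endothelial count was 2 higher and 1 lower. In fits without 1 mutant sample it was 0 and 3 without C57BL/6 mutant 4, 0 and 1 without C57BL/6 mutant 5 or BALB/c mutant 16, and 1 and 1 without C57BL/6 mutant 6 or BALB/c mutant 17. The smooth muscle count was 0 and 2 without BALB/c mutant 16, 0 and 1 without C57BL/6 mutant 5, and 1 and 1 without C57BL/6 mutant 4. Adipocyte genes gave 3 of 6 higher and 0 lower, with 1 higher without C57BL/6 mutant 4, C57BL/6 mutant 5, BALB/c mutant 16 or BALB/c mutant 17. Motile cilia genes gave 1 of 17 higher and 2 lower, with 0 higher in each fit without 1 mutant sample other than C57BL/6 mutant 4. The lower count was 1 without C57BL/6 mutant 4, BALB/c mutant 16 or BALB/c mutant 17, 3 without C57BL/6 mutant 6, and 4 without C57BL/6 mutant 5 or with DESeq2. Melanocyte genes gave 0 of 3 tested higher and 2 lower, with 1 lower in each fit without 1 mutant sample, and Tyr is the gene that stayed.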
